A study of Homo sapiens with 4 samples.

Results

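The loci of 9 inflammatory and NF-kB target genes were examined for FOXA2 binding: the chemokines IL8 (CXCL8) and CXCL1, the cytokines IL6, IL1A, IL1B and LIF, and the feedback or survival genes BIRC3, TNFAIP3 and NFKBIA. Their sites were all FOXA2 ChIP-seq peaks, of any strength, whose summit lay in 7 windows of the hg19 build, 1.28 Mb in all. The members and windows were chosen with earlier results of these data known. IL8 shares a window with CXCL1, and IL1A with IL1B. The windows held 30 of 21308 peaks in cells given vehicle and 23 of 14846 peaks in cells given GSK2879552, together 31 distinct sites. The cells were PC3, an androgen-independent line derived from a prostate cancer metastasis, kept in RPMI1640 with 5% charcoal-stripped serum. One group received vehicle and the other 50 µM GSK2879552, a compound that blocks LSD1 (KDM1A), a histone demethylase, for 4 hours; no separate duration is given for vehicle. Each group had 2 sequencing lanes described as technical replicates, and 1 peak list covers both, so no spread between cultures was measured and no test between the groups was possible. Some labels call the assay ATAC-seq, while titles and series call it FOXA2 ChIP-seq, which was followed.

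NF-kB is a family of dimeric transcription factors held in the cytoplasm by inhibitor proteins such as the product of NFKBIA. Inflammatory signals destroy the inhibitor, and the freed dimers enter the nucleus and activate chemokine and cytokine genes together with genes that end the signal, among them NFKBIA itself and TNFAIP3, which encodes the ubiquitin-editing enzyme A20. FOXA2 is a forkhead factor that binds sites in closed chromatin, many of them far from gene starts. LSD1 removes methyl groups from histone H3 and works within several repressor and activator complexes.

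The promoters of 4 members are shown: IL8, CXCL1 and IL6, whose windows held the 2 strongest sites, and NFKBIA, whose window held no peak. Each line gives the 250 bases before the RefSeq start, 5′ to 3′, on GRCh38.p14, a build whose positions cannot be set beside the hg19 positions of the peaks. Capitals mark matches on either strand to 2 NF-kB motifs that can overlap, GGAATTTCC and a looser form (GGG, any 5 bases, CC), TGANTCA (AP-1) and TGTTTAC or TGTTTGC (forkhead).
IL8 (CXCL8) (chr4:73740319-73740568, plus strand): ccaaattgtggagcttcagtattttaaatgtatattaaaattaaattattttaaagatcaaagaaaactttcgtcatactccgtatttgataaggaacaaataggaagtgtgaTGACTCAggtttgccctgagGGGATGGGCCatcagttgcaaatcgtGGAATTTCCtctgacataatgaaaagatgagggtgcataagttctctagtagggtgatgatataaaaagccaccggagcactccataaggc
CXCL1 (chr4:73869143-73869392, plus strand): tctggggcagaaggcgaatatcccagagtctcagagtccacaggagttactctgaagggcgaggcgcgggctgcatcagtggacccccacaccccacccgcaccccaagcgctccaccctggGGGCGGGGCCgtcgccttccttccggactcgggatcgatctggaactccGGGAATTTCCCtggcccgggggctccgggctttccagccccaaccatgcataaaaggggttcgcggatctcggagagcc
IL6 (chr7:22726950-22727199, plus strand): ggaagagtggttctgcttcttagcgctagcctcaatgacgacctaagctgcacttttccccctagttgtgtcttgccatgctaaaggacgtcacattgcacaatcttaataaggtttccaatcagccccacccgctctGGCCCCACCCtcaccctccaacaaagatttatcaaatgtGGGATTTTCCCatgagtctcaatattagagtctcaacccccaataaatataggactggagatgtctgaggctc
NFKBIA (chr14:35404750-35404999, minus strand): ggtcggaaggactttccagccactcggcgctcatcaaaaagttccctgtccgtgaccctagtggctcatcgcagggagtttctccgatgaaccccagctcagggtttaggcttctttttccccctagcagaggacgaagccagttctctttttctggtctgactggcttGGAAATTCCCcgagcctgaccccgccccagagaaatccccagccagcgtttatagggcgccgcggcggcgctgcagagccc

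The table of promoters matched 8 of the 9 members, all but LIF. IL1A has 2 start sites and was counted if either held the motif, whereas the shares of all promoters count promoters, not genes. The looser NF-kB motif was present in 6 of these 8 and in 54.4% of all 35116 promoters of that length. The stricter GGAATTTCC, added after the sequences were seen, was present in 3 of 8 (IL8, CXCL1 and NFKBIA) and in 0.413% of all promoters. Because of that late addition, these 2 shares are a description and no test of enrichment. GGAATTTCC began 91 bases before the start of IL8, 78 before CXCL1 and 81 before NFKBIA. TGANTCA occurred in 2 of 8, IL8 and IL1A, against 6.57% of all promoters. TGTTTAC was in 0 of 8 and in 2.98% of all promoters, and TGTTTGC was in IL1A alone and in 3.23%. These matches describe letters only, and whether any peak lies on a promoter was not determined because gene positions on hg19 were not used here.

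FOXA2 peaks were found in 6 of the 7 windows, and most were called in both conditions. In vehicle, 22 of the 30 peaks (73.3%, exact Clopper-Pearson 95% interval 54.1 to 87.7) had a GSK2879552 peak over them, against 62.0% of the whole vehicle list. Of the 23 GSK2879552 peaks, 22 (95.7%, 78.1 to 99.9) overlapped a vehicle peak, against 89.2% of the whole list. Intervals cover counting error only, and both contain the value of the whole list. The ratio of peak numbers was 0.767 (0.425 to 1.37), against 0.697 for the whole lists. The windows held 23.4 vehicle peaks per Mb and 17.97 GSK2879552 peaks per Mb, against 7.05 and 4.90 over the span between the first and last summit of the placed chromosomes. The windows were drawn with earlier results of these data known, so their density is a description.

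The level at a site is given as the number of sequenced fragments covering its summit, which was worked out from the deposited fold and −log10 p. The largest numbers belonged to the first site of the IL6 window and the seventh site of the IL8 and CXCL1 window. At the 22 sites called in both lists, fragments numbered 14 to 87 in vehicle, with a median of 23.5 against 18 after GSK2879552. The number was lower after GSK2879552 at 19 of the 22 pairs, equal at 1 and higher at 2. Over the whole lists it was lower at 78.0% of 13200 pairs. With the 2 libraries scaled to the same background floor, the 22 pairs had a median log2 ratio of -0.35 (quartiles -0.52 and -0.21), or a ratio of 0.782. All 13200 pairs had a median of -0.32 and a median ratio of 0.798, and the median of the windows lay between their quartiles, -0.57 and -0.08. At least 1.5-fold lower values were seen at 5 of 22 pairs, against 24.9% of all pairs, and at least 1.5-fold higher values at 0 of 22, against 0.826%. A site called in 1 list alone enters no pair.

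**Figure D1:**
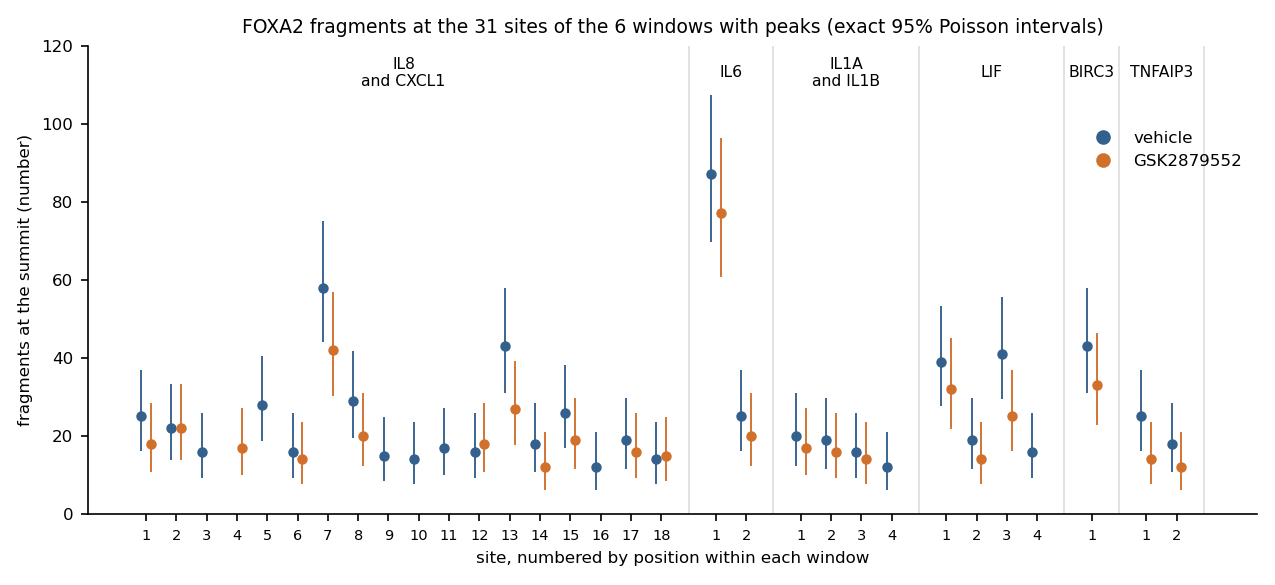
Fragments at the summit (y axis, number) for each of the 31 sites, numbered by position within its window (x axis), in vehicle (blue) and GSK2879552 (orange); bars are exact 95% Poisson intervals, which cover counting error only. A missing point means no peak was called in that list. The IL6 window holds the highest site, with 87 fragments in vehicle and 77 after GSK2879552.

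**Figure D2:**
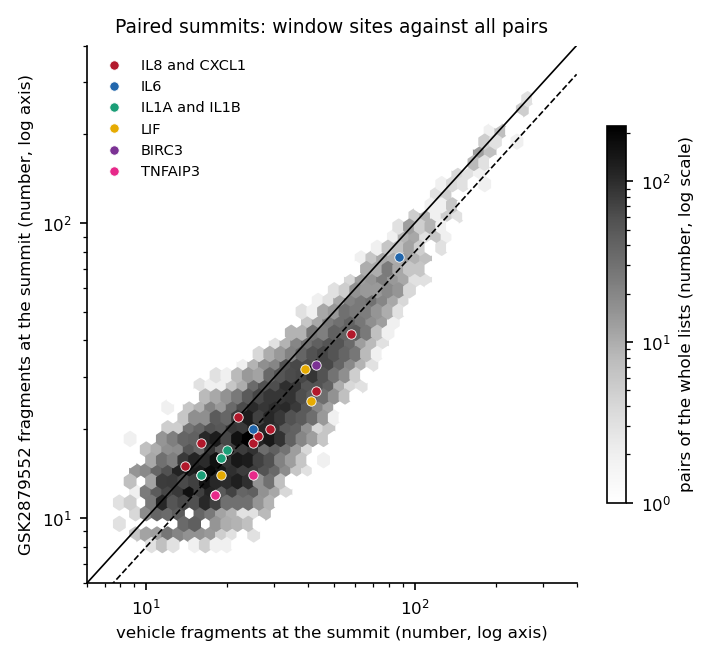
GSK2879552 fragments against vehicle fragments at paired summits (both axes logarithmic), for 13200 pairs of the whole lists (grey, darker for more pairs) and the 22 pairs of the windows (coloured by window; pairs with equal numbers hide each other). The solid line marks equality and the dashed line the median ratio of all pairs, 0.798; the coloured points scatter around the dashed line.

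The chemokine window on chromosome 4 (chr4:74550000-75050000), which holds IL8 and CXCL1, carried 18 of the 31 sites. IL8 and CXCL1 encode chemokines that draw neutrophils to inflamed tissue and bind the receptors CXCR1 and CXCR2 or CXCR2. In RefSeq the protein-coding genes that follow CXCL8 along the chromosome are CXCL6, PF4V1, CXCL1, PF4, PPBP, CXCL5, CXCL3 and CXCL2. No site here was assigned to a gene, because gene positions on hg19 were not used. The window held 17 vehicle and 12 GSK2879552 peaks, or 34.0 and 24.0 per Mb, against 6.74 and 4.62 per Mb over chromosome 4. A GSK2879552 peak lay over 11 of the 17 vehicle peaks (64.7%, 38.3 to 85.8). The share was 62.0% over the whole vehicle list and 61.5% over chromosome 4.

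The strongest site of the chemokine window was the seventh, at chr4:74606145-74606542 in vehicle. It had 58 fragments at the summit in vehicle (exact Poisson 95% interval 44.0 to 74.98) and 42 after GSK2879552, with summits 1 bp apart. The ratio was 0.723, with a counting interval of 0.474 to 1.09. By strength it ranked 700 of 21308 in vehicle and 1011 of 14846 in GSK2879552, within the top 3.29% and 6.81%. The second strongest, at chr4:74881718-74882122, had 43 fragments in vehicle and 27 after GSK2879552, a ratio of 0.627 (0.372 to 1.04). Its interval was 405 bp wide in vehicle and 281 bp after GSK2879552. Both leading sites of the chemokine window thus had lower numbers in GSK2879552, with counting intervals that reach above 1.

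The other 9 pairs of the window ranged from lower to slightly higher numbers after GSK2879552. At chr4:74710089-74710379 the numbers were 29 and 20, and at chr4:74911058-74911332 they were 26 and 19. The site nearest the left edge of the window, at chr4:74555829-74556117, had 25 in vehicle and 18 in GSK2879552. The neighbour of the second strongest site, at chr4:74889504-74889720, had 18 and 12, which was at least 1.5-fold lower. Smaller differences were seen with 19 and 16 at chr4:74965370-74965602, and 16 and 14 at chr4:74600395-74600570. The only window pairs without a lower number after GSK2879552 lay here too. They were chr4:74558399-74558764 with 22 in both lists, chr4:74871237-74871492 with 16 in vehicle and 18 in GSK2879552, and chr4:75046933-75047139 with 14 and 15. The median log2 ratio of the 11 chemokine pairs was -0.46, with values from -0.67 to 0.17.

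The chemokine window also held 6 of the 8 sites found in vehicle alone and the single site found only after GSK2879552. It held 17 of all 30 vehicle peaks. The share of these 17 with a GSK2879552 peak over them, 64.7%, was near the 62.0% of the whole vehicle list. The vehicle-only site with the most fragments, at chr4:74596128-74596379, had 28 over a local background of 3.48 fragments, and fell in bin 7 of 10 equal strength bins of the vehicle list (10 is the strongest), of which 80.8% overlapped a GSK2879552 peak. The GSK2879552-only site, at chr4:74593479-74593646, had 17 fragments and its summit lay 2711 bp from that of this vehicle-only site. These 2 sites lie on the same side of the strongest summit, and neither was called in the other list. Among 735 GSK2879552 peaks with a background within 10% of 3.48, the fewest fragments at which a peak was called was 14; the GSK2879552 level and background at this site are not known, since a peak list gives values only where a peak was called. The other 5 vehicle-only sites of the window had 12 to 17 fragments, at chr4:74570146-74570333 (16), chr4:74716143-74716348 (15), chr4:74783809-74784055 (14), chr4:74844719-74844956 (17) and chr4:74921307-74921513 (12). They fell in strength bins 1 to 4 of the vehicle list. Of these, 3 lie between the sites at chr4:74710089-74710379 and chr4:74871237-74871492, so no GSK2879552 summit was called over 161 kb, the longest spacing in the window. In vehicle the longest spacing was 104 kb.

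**Figure D3:**
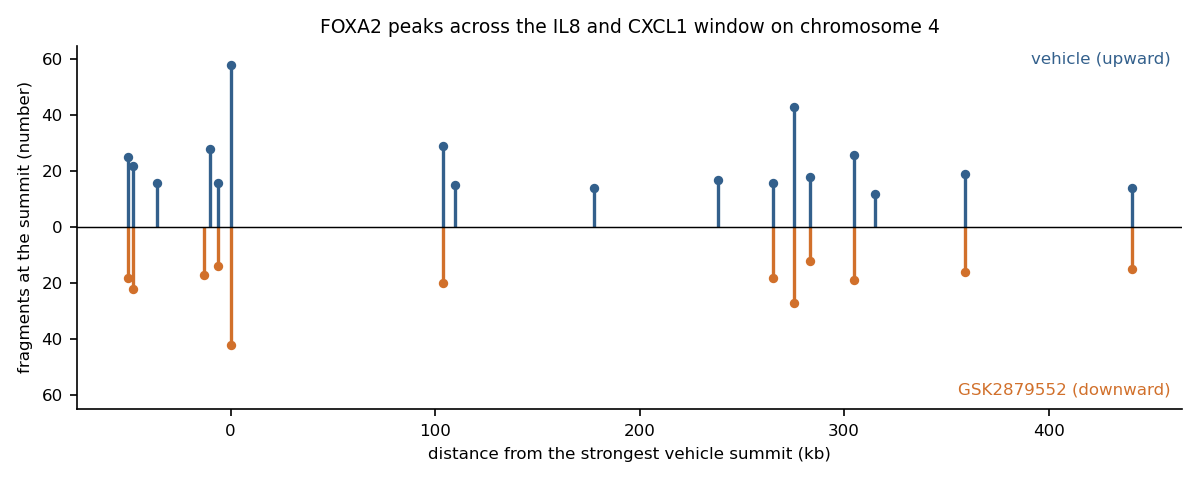
Fragments at the summit (y axis, number) of each peak in the IL8 and CXCL1 window, by distance from the strongest vehicle summit (x axis, kb), with vehicle drawn upward in blue and GSK2879552 downward in orange. The strongest site has 58 fragments in vehicle and 42 in GSK2879552, and blue stems without an orange partner are the 6 sites found in vehicle alone.

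The window of IL6, a cytokine that signals through gp130 and STAT3, held the strongest FOXA2 site of all the windows. The window (chr7:22710000-22830000) held 2 sites, both called in both lists. The first, at chr7:22712940-22713434, had 87 fragments in vehicle (69.7 to 107) and 77 after GSK2879552, a ratio of 0.883 (0.641 to 1.21). By strength it ranked 152 of 21308 in vehicle and 79 of 14846 in GSK2879552; ranks from lists of different length show no change. Its interval was 495 bp wide in vehicle and 527 bp in GSK2879552. The second site, at chr7:22757753-22758082, lay 44.7 kb away and had 25 fragments in vehicle and 20 after GSK2879552. Just outside the window, 2.51 kb beyond its left edge, a further shared peak at chr7:22707344-22707926 had 27 fragments in vehicle and 28 after GSK2879552. The first site lay only 3.18 kb inside that edge.

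IL1A and IL1B encode the interleukin 1 cytokines, which bind 1 receptor and start NF-kB signalling. Their window (chr2:113480000-113650000) held 4 vehicle and 3 GSK2879552 peaks of low to middle strength. The numbers were 20 in vehicle and 17 in GSK2879552 at chr2:113526184-113526391, 19 and 16 at chr2:113561805-113562088, and 16 and 14 at chr2:113627052-113627356. The 3 ratios lay between 0.840 and 0.873, the narrowest range of the windows with 3 or more pairs. The fourth vehicle site, at chr2:113637725-113637919, had 12 fragments and no GSK2879552 peak nearer than 10599 bp. The vehicle-only site was the weakest of the 4.

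LIF, an IL6-family cytokine that keeps stem cells undifferentiated and signals through LIFR and gp130, lay in a window (chr22:30580000-30700000) with 4 vehicle sites, 3 of them with summits within 10.7 kb. The site at chr22:30581973-30582489 had 39 fragments in vehicle and 32 after GSK2879552, a ratio of 0.819 (0.497 to 1.34). The site at chr22:30592766-30593048 had 41 and 25, a ratio of 0.609 (0.355 to 1.02). The intervals of these 2 ratios overlap. Between them, 0.894 kb from the latter in vehicle, the site at chr22:30591943-30592142 had 19 and 14 fragments. The fourth, at chr22:30608573-30608866, was called in vehicle alone, with 16 fragments, and the nearest GSK2879552 summit lay 15831 bp away. The group stood alone on the chromosome: the nearest vehicle summits beyond the window were 482 kb to the left and 471 kb to the right of its edges. Chromosome 22 carried 115 vehicle peaks, 3.35 per Mb, against 33.3 per Mb in the window.

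BIRC3 encodes cIAP2, a ubiquitin ligase that restrains cell death and takes part in NF-kB signalling, and its neighbours on the chromosome are YAP1 and BIRC2, which encodes cIAP1. The window (chr11:102130000-102260000) held 1 site, at chr11:102163727-102164007. It had 43 fragments in vehicle (31.1 to 57.9) and 33 after GSK2879552, a ratio of 0.766 (0.471 to 1.23), with summits 1 bp apart. It fell in the strongest of the 10 bins of the vehicle list, of which 100% overlapped a GSK2879552 peak. The nearest vehicle summits outside the window were 80.8 kb and 62.4 kb from its edges.

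The lowest ratio of the windows was found in that of TNFAIP3. This window (chr6:138130000-138260000) held 2 sites, 88.1 kb apart in vehicle, both called in both lists. At chr6:138159319-138159669, 25 fragments covered the summit in vehicle and 14 after GSK2879552, a ratio of 0.559 (0.269 to 1.12). At chr6:138247444-138247670 the numbers were 18 and 12, a ratio of 0.665 (0.292 to 1.46). Both pairs were at least 1.5-fold lower, as were 24.9% of all 13200 pairs. Their local backgrounds at these 2 sites were 1.24 and 1.12 fragments in vehicle and 1.14 and 1.08 in GSK2879552. The floor was 1.08 in both lists, so these backgrounds were near it. The counting intervals of both ratios include 1.

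NFKBIA, which encodes the inhibitor IkB-alpha, had no FOXA2 peak in its window (chr14:35820000-35930000) in either list. The nearest peaks were shared or single peaks outside: to the left, chr14:35719523-35719807, with 45 fragments in vehicle and 24 in GSK2879552, 100.3 kb from the edge. To the right, the nearest vehicle peak, at chr14:36131215-36131400 with 16 fragments, was 201 kb from the edge and had no GSK2879552 counterpart, and the nearest GSK2879552 peak, with 40 fragments, was 209 kb away. The stretch without a summit was 412 kb in vehicle and 420 kb in GSK2879552. A count of 0 in a window of 110 kb allows up to 3.69 peaks (exact Poisson upper bound), and chromosome 14 averaged 10.9 vehicle peaks per Mb.

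**Figure D4:**
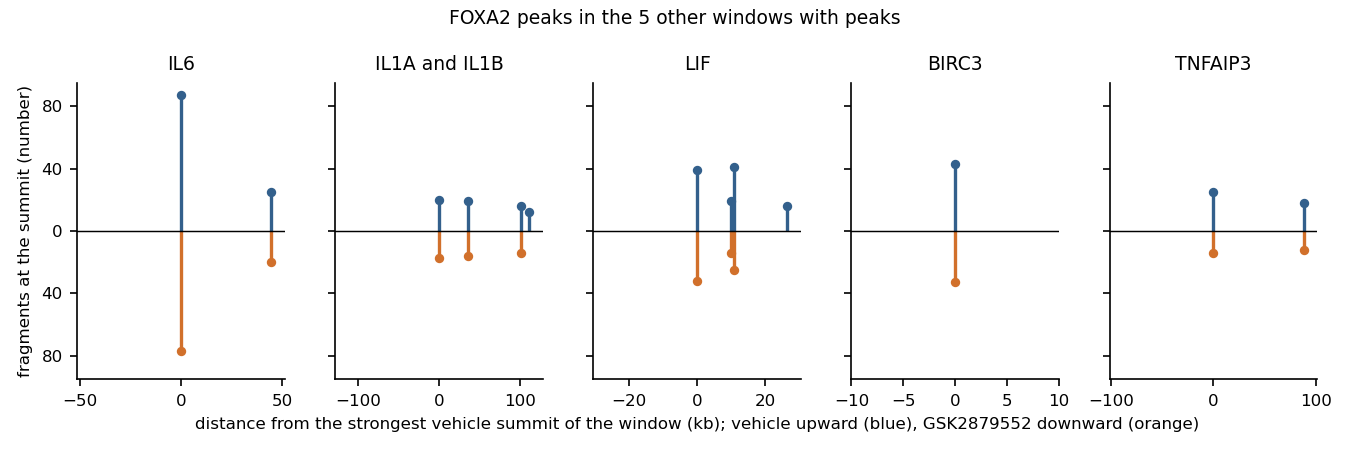
Fragments at the summit (y axis, number) of each peak in the IL6, IL1A and IL1B, LIF, BIRC3 and TNFAIP3 windows, by distance from the window's strongest vehicle summit (x axis, kb, scaled per panel), with vehicle upward in blue and GSK2879552 downward in orange. The strongest summit is the one with the highest −log10 p. In the LIF panel that summit has 39 vehicle fragments, while the site 10.7 kb away has 41. Upward stems without a downward partner, 1 in the IL1A and IL1B window and 1 in the LIF window, are sites found in vehicle alone.

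Summed over their pairs, the 6 windows with peaks all had fewer fragments after GSK2879552. The ratio of the sums was 0.603 (counting interval 0.356 to 1.005) for TNFAIP3, 0.716 (0.520 to 0.981) for LIF and 0.766 (0.471 to 1.23) for BIRC3. It was 0.778 (0.650 to 0.930) for IL8 and CXCL1, 0.853 (0.565 to 1.28) for IL1A and IL1B, and 0.864 (0.652 to 1.14) for IL6. Over all 22 pairs 638 vehicle and 497 GSK2879552 fragments gave 0.777 (0.690 to 0.875). Over the whole lists 78.0% of 13200 pairs had fewer fragments after GSK2879552. The median ratio of those pairs was 0.798, which is a median of single pairs and not a ratio of sums. The lower sums are thus not particular to these windows. Neighbours in this order do not differ beyond their intervals.

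Whether a vehicle peak of these loci was also called after GSK2879552 went with its strength. The 22 shared vehicle peaks had a median of 23.5 fragments and the 8 vehicle-only peaks a median of 15.5, with 12 to 28 fragments, close to the medians of 24 and 14 over the whole vehicle list. In the upper 5 of the 10 strength bins 14 of the 15 window peaks were shared, against 88.0% of all vehicle peaks there. In the lower 5 bins 8 of 15 were shared, against 36.0%. All 6 in the strongest bin were shared, as were 100% of all vehicle peaks in that bin. Taking for each window peak the overlapped share of its bin gave a mean of 64.0%, against the observed 73.3% (54.1 to 87.7), whose interval contains it. Outside the chemokine window, 11 of 13 vehicle peaks (84.6%, 54.6 to 98.1) were shared. That interval contains the 62.0% of the whole vehicle list.

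**Figure D5:**
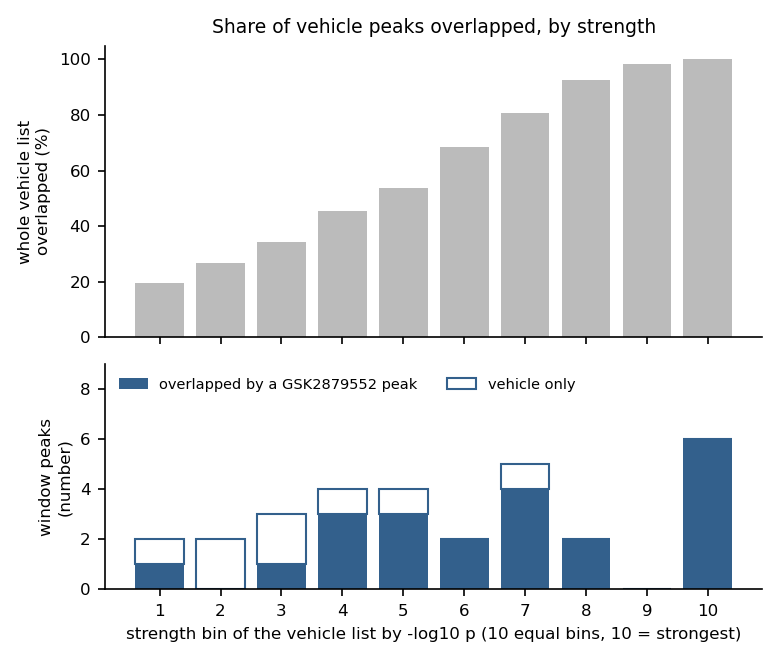
Upper panel, share of all vehicle peaks overlapped by a GSK2879552 peak (y axis, percent) in 10 equal bins of the vehicle list by −log10 p (x axis, 10 is the strongest). Lower panel, the 30 window peaks in each bin (y axis, number), filled where overlapped and open where found in vehicle alone. The 6 window peaks of the strongest bin are all filled, and 100% of all vehicle peaks in that bin were overlapped.

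Paired summits lay a median of 25.5 bp apart, from 1 to 64 bp, against a median of 23 bp over all pairs. Window peaks had a median width of 265.5 bp in vehicle and 248 bp in GSK2879552, against 258 and 242 bp in the whole lists. The smallest peak width also differed between the lists, 175 bp in vehicle and 168 bp in GSK2879552. Its part in the widths and covered length was not tested. Covered length in the windows was 8421 bp in vehicle and 5904 bp in GSK2879552. Local backgrounds of the window peaks ran from 1.12 to 4.10 fragments in vehicle and 1.08 to 3.71 in GSK2879552, with the highest at the first IL6 site in both lists and medians of 2.02 and 2.1. The whole lists had median backgrounds of 1.68 and 1.71. The peak lists do not state the depth of the libraries. Their smallest backgrounds, 1.08 fragments in each list, stood in for it in the scaling. Taken per kb of the smallest peak width, these backgrounds were 6.17 in vehicle and 6.44 in GSK2879552. Equal smallest backgrounds therefore need not mean equal depth. The median log2 ratio of the paired window sites was -0.35 with this scaling and -0.35 without it. The part of depth in the lower numbers was not tested further.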

How the data were processed

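FOXA2 ChIP-seq was represented by 1 peak list for vehicle and 1 for GSK2879552. BWA 0.7.2, SAMtools 0.1.18 and MACS2 2.1.2 with hg19 (GRCh37) were used, per the submitters' processing notes; options, duplicate handling, any control library and the calling threshold were not named there. Deposited fold enrichment is a ratio of fragments to local background at the summit, with a pseudocount of 1. The deposited −log10 p and −log10 q values were computed by the peak caller, and 10 times the −log10 q gives the deposited score. These are the authors' values. They ranked peaks within each list, gave the fragments compared between the lists, and set the stricter thresholds among the alternatives.

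Fragments and local background were computed from fold and −log10 p by finding the whole number under 1500 that gives the Poisson upper tail (within 0.001 for 100% of peaks of both lists; for the window peaks no second number matched). The procedure was tested on simulated data. The smallest background of each list, 1.08, served to scale fragment ratios by 1.002. Intervals sharing 1 bp were called overlapping, checked with bedtools 2.31.1, and mutual best partners formed pairs. Shares carry exact 95% Clopper-Pearson intervals, fragment numbers exact Poisson intervals and ratios of fragments exact binomial intervals given their sum, with Python 3.11.15 and scipy 1.17.1. All cover counting error only, and reads without molecular identifiers are not independent molecules.

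The members, windows and lists were chosen with earlier results of these data known. In windows with up to 6 sites every peak is named; in the larger one the rule was the 5 strongest, single-list peaks of 15 or more fragments and the peak nearest each gene start, the last of which could not be applied, and the other peaks are named beyond the rule. Promoter sequences are RefSeq's on GRCh38.p14. Alternatives were stricter thresholds, other overlap rules, other fragment scalings, wider and narrower windows and the omission of each window.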

Additional observations from a re-analysis of the deposited data

How the results depend on the processing

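The lower number of peaks, and a median log2 ratio of fragments below 0, held in every alternative computed. With both lists held to a −log10 q of at least 10, the ratio of peak numbers was 0.5, and 50% of the remaining vehicle peaks and 100% of the remaining GSK2879552 peaks overlapped. The chemokine window then held 7 and 2 peaks, IL1A and IL1B 2 and 1, LIF 2 in vehicle, and TNFAIP3 0 in GSK2879552. A fold of at least 5 gave 100% of GSK2879552 peaks overlapping a vehicle peak. Windows wider by 50 kb on each side gave 6 vehicle and 5 GSK2879552 peaks for IL6; windows narrower by 20 kb gave 1 and 1 for IL6, 1 and 0 for LIF, and 1 and 1 for TNFAIP3. Stricter thresholds and narrower windows leave fewer peaks by construction. Under a stricter threshold a shared site also stops counting as overlapped when only its vehicle peak passes. The 2 TNFAIP3 sites, called in both lists, had −log10 q of 20.9 and 13.2 in vehicle. In GSK2879552 they had 8.25 and 6.45, so a cutoff of 10 removed only their GSK2879552 peaks. A lower share there is therefore not a count of lost sites. Omitting each window in turn gave overlapped shares of 71.4% to 84.6% of vehicle peaks and 95% to 100% of GSK2879552 peaks, peak ratios from 0.750 to 0.846 and median log2 ratios from -0.44 to -0.31. The highest shares and the highest peak ratio came without the chemokine window. The other alternatives, among them 3 overlap rules, fragments without scaling (-0.35) and above the local background (-0.38), and 20 strength bins added after the data were seen (64.8%), stayed within the interval of the value or within 1.5 times the count.

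No paired analysis was possible because the lanes of a group share 1 deposited list, and for that reason no lane could be left out. Motifs at peaks, the distance to gene starts and further NF-kB pathway genes were not run, since they need hg19 sequence or annotation, which was not used here. The counting interval of the ratio included 1 at each of the 22 pairs.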
